A study of Mus musculus with 8 samples.

Results

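Retinoid uptake, conversion and signalling were followed through 9 genes in a mouse stromal line and a mouse mammary carcinoma line that were grown apart or together. The 9 genes are Stra6, Rbp4, Rdh10, Aldh1a1, Aldh1a3, Crabp2, Rarb, Rarg and Dhrs3, and they were picked by name from the 19938 genes that have a probe set with exactly 1 symbol in the platform annotation. Each of them had 1 probe set, so no choice between probe sets was needed. Stra6 was picked because its level was low in co-cultured DA3 and high in DA3 alone, so its values in DA3 arrays are given as a description with no test. The other 8 were picked for their place in the pathway, with results of these data already known. For this reason no member was tested in the comparison of co-cultured DA3 with DA3 alone.

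RNA of 8 samples was hybridised to Affymetrix mouse gene arrays, with 4 groups of 2 arrays. MBA-15 is a stromal line with a pre-osteoblastic character and DA3 is a mammary adenocarcinoma line. The groups are DA3 alone, DA3 co-culture, MBA-15 alone and MBA-15 co-culture. The last and the second are called co-cultured MBA-15 and co-cultured DA3, and the third is named the MBA-15 arrays labelled alone. In co-culture, DA3 cells were seeded at 13000 cells per cm2 onto a layer of MBA-15 cells seeded the day before at 20000 cells per cm2, and cells of 1 line grown apart were the controls. All groups share the same medium with fetal calf serum, no retinoid treatment is named in the labels, and the sample descriptions give 24 h for every array. Magnetic particles against EpCAM, an epithelial surface protein, parted the carcinoma cells, which bind the particles, from the stromal cells, which do not. Both lines are single established lines, and the labels name no separate cultures behind the 2 arrays of a group, so the p-values rest on a spread between arrays that may be technical only. An assay number stands in each description without an explanation. Assay 3 holds 1 array of each group, assay 4 holds 1 array of each group but co-cultured DA3, and assay 5 holds the other co-cultured DA3 array.

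Vitamin A travels in blood as retinol bound to the carrier protein that Rbp4 encodes, and Stra6 encodes the membrane receptor that takes retinol from this carrier into the cell. Rdh10 oxidises retinol to retinal, enzymes such as those of Aldh1a1 and Aldh1a3 oxidise retinal to retinoic acid, and Dhrs3 turns retinal back into retinol. Crabp2 carries retinoic acid to its nuclear receptors, which include those of Rarb and Rarg, and the Cyp26 enzymes break it down. Retinoic acid guides differentiation in both mammary epithelium and bone, and Stra6, Rarb, Dhrs3 and Crabp2 are themselves known to be induced by it in many cells.

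Beside the levels, 2 promoter stretches show what a retinoic acid response element looks like and what lies in front of Stra6. RefSeq promoter windows of the GRCm38.p6 assembly, 250 bases before and 50 after a start site, were given for 6 of the 9 members, all but Rdh10, Aldh1a3 and Crabp2, with 14 windows in all. They were searched on both strands for the receptor-binding unit of 6 letters, with the spelling AGGTCA or the variants AGTTCA, then GGGTCA, then GGTTCA, and for 2 such units in the same direction with 1, 2 or 5 letters between them. The pair with 5 letters between the units, named DR5, lies in 1 of the 14 windows, that of Rarb, and in 0.0974% of the 32851 windows of all genes. In the stretch of Rarb below, on the minus strand of chr14:16575477-16575596, capitals mark this pair, which runs from 53 to 37 bases before the start site. The stretch of Stra6, on the plus strand of chr9:58128968-58129087, ends at the base before its most upstream start site and holds no unit, so it has no capitals.
Rarb: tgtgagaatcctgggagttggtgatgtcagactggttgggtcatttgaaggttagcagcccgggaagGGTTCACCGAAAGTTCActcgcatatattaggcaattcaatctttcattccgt
Stra6: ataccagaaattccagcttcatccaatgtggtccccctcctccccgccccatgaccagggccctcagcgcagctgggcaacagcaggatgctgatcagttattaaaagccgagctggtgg
Single units, including those of the pair, lie in 5 of the 14 member windows and in 43.7% of all windows, or in 5 of the 6 members and 46.9% of all genes. Stra6 is among the 5, with a unit from 15 to 20 bases after the start of another of its 4 windows. The pairs with 1 or 2 letters between the units lie in 0 of the 14 member windows and in 0.222% and 0.268% of all windows. These matches are descriptions of the letters and show no binding.

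Before the members, the separation itself was read from Epcam. Its log2 level was 9.57 and 9.46 in DA3 alone, 9.30 and 9.38 in co-cultured DA3, 5.58 and 5.19 in co-cultured MBA-15, but 8.45 and 9.25 on the 2 MBA-15 arrays labelled alone. Those 2 arrays therefore went against their label. The summed linear signal of 27 epithelial markers was 5918 and 7683 there, against 840 and 766 in co-cultured MBA-15 and 13097 and 11826 in DA3 alone. Of 30 stromal markers, the summed signal was 14559 and 14945 on the same arrays, 21882 and 14656 in co-cultured MBA-15, 2430 and 2953 in DA3 alone, and 5339 and 3301 in co-cultured DA3. The word mix stands in the description of each array of both alone groups, with no word on what was mixed, so the group labels are used as names. Of 5 endothelial markers 0 were above the array median on any array. Of the other types, 1 of 6 leukocyte markers was above it on every array, and up to 3 of 7 adipocyte markers were, in 3 of the 4 groups. Array medians lay between 4.479 and 4.642, and a level below them is called dim here, because a difference from a dim level can be compressed.

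**Figure D1:**
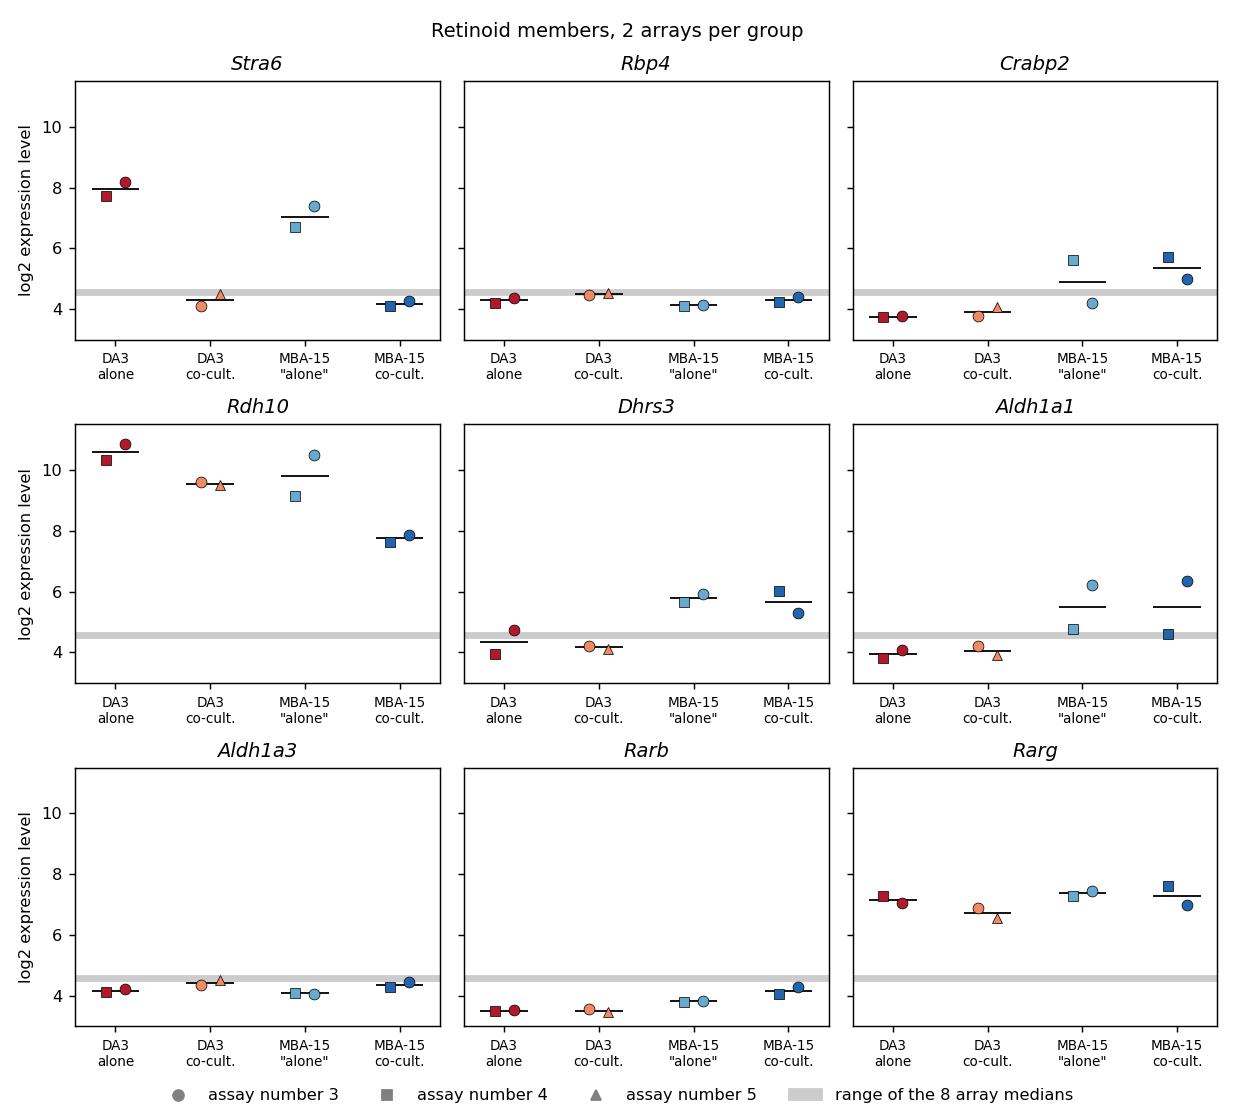
Log2 expression level of the 9 members on the 8 arrays, by group, with the bar at the mean of 2 arrays, the marker shape giving the assay number and the grey band the range of array medians. Stra6 is far above the band in DA3 alone and on the MBA-15 arrays labelled alone, below it on 3 of the 4 co-culture arrays and inside it on co-cultured DA3 array 2, while Rbp4, Aldh1a3 and Rarb stay at or below the band throughout.

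Stra6, the retinol receptor, was high in DA3 alone and dim in both fractions of the co-culture. Its log2 level was 7.71 and 8.17 in DA3 alone, 4.10 and 4.50 in co-cultured DA3, 4.09 and 4.27 in co-cultured MBA-15, and 6.69 and 7.40 on the MBA-15 arrays labelled alone. Both co-cultured DA3 arrays lay below both DA3 alone arrays and below the median of their own array. The mean went from 7.94 ± 0.33 to 4.30 ± 0.28 (SD, n = 2 arrays per group), a difference of -3.64 ± 0.28 log2 units (SE from limma) or 12.5-fold, and only 1 of the 19938 genes had a larger fall in this comparison. As the lower level is dim, the fold can be compressed. As the gene was chosen for this fall, the fold can also be too large. The difference was -4.07 log2 units within assay 3. These values chose the gene and are not tested. In the same 2 co-culture arrays Epcam was 9.34 ± 0.06, against 9.52 ± 0.08 in DA3 alone. The sort selected these cells on the protein of this gene. In a pool of cells, fewer cells with the RNA and less RNA per cell cannot be told apart.

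The Stra6 levels of the 2 co-culture fractions overlapped. The means were 4.30 ± 0.28 in the DA3 fraction and 4.18 ± 0.12 in the stromal fraction (SD, n = 2). The difference was 0.12 ± 0.28 log2 units (SE), a description with no test, and both levels are dim. On a linear scale with co-cultured MBA-15 at 0% and DA3 alone at 100%, each by its mean, Stra6 stood at -0.455% and 1.91% on the co-cultured DA3 arrays. On the same scale and arrays Epcam stood at 84.7% and 90.4%, and 23 epithelial markers that lay over 2 log2 units apart between the ends had medians of 83.6% and 89.9%.

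Stra6 was also lower in co-cultured MBA-15 than on the MBA-15 arrays labelled alone. The means compared hold no array labelled DA3, but the spread in the fit was estimated with the DA3 arrays that chose Stra6. The arrays labelled alone also went against their label. For both reasons the adjusted p of Stra6 is not independent of the values that chose it and is given as a description. The difference was -2.87 ± 0.28 log2 units (SE; limma with Benjamini-Hochberg adjustment over all genes, adjusted p = 0.00986), from 7.05 ± 0.50 to 4.18 ± 0.12 (SD, n = 2), lower on 2 of 2 arrays. It was -3.14 within assay 3 and -2.60 within assay 4. Of the 9 members Stra6 was the 1 under the threshold, which is not read as a test result for the reasons above. Of all genes 0.848% passed, 0.772% with a fall. Epcam fell by 3.46 ± 0.27 in the same comparison (limma adjusted p = 0.00713). On the linear scale above, Stra6 stood at 36.9% and 65.4% on the 2 MBA-15 arrays labelled alone, Epcam at 44.4% and 81.9%, and the 23 epithelial markers at medians of 34.8% and 57.9%. The array with more Epcam thus also had more Stra6, and the part of this in the fall was not tested. The call of Stra6 was lost without co-cultured MBA-15 array 1 (limma adjusted p = 0.0578) or 2 (0.0852), without MBA-15 array 2 labelled alone (0.0577), and when only these 4 arrays were fitted (0.0621).

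Rbp4 encodes the carrier from which Stra6 takes retinol. Its level was dim on every array, between 4.12 and 4.53. It was 4.21 and 4.36 in DA3 alone, 4.48 and 4.53 in co-cultured DA3, 4.23 and 4.40 in co-cultured MBA-15, and 4.12 and 4.15 on the MBA-15 arrays labelled alone. After a further quantile normalization the difference between the DA3 groups went from 0.21 to 0.081. Differences between groups were within 0.22 log2 units in the 4 comparisons, on dim levels throughout. In the 3 comparisons where it was tested, limma adjusted p lay between 0.399 and 0.947. The related gene Stra6l, which encodes another receptor for this carrier, had group means between 3.97 and 4.07 and was dim on all 8 arrays.

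**Figure D2:**
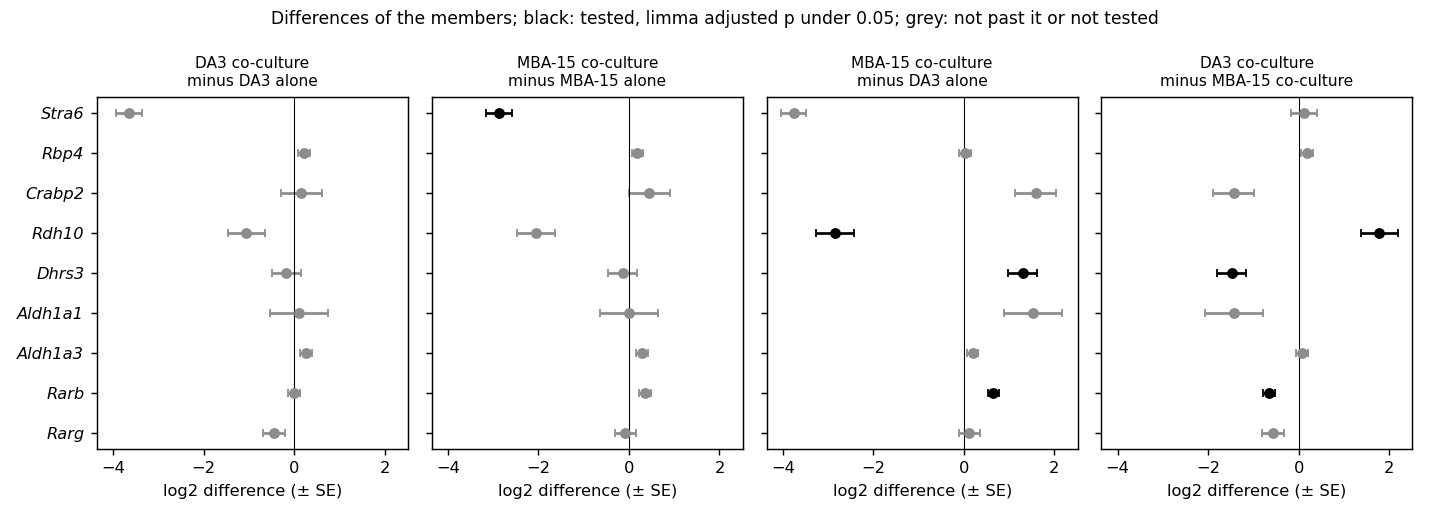
Log2 difference of the 9 members in the 4 comparisons, with limma standard errors; black points were tested and had a limma adjusted p under 0.05, grey points did not or were not tested. Stra6 and Rdh10 lie left of 0 in the first 3 panels, and Rdh10, Dhrs3 and Rarb are black in both panels that set a DA3 group against co-cultured MBA-15.

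Rdh10, which makes retinal from retinol, was high in every group. Its highest mean was in DA3 alone, whose arrays overlapped the MBA-15 arrays labelled alone. Its log2 level was 10.34 and 10.85 in DA3 alone, 9.59 and 9.49 in co-cultured DA3, 7.63 and 7.88 in co-cultured MBA-15, and 9.13 and 10.48 on the MBA-15 arrays labelled alone. The 4 DA3 arrays all lay above both co-cultured MBA-15 arrays, an order whose share over all genes was not counted. Both co-cultured DA3 arrays lay below both DA3 alone arrays. Its difference between the DA3 groups was -1.05 ± 0.42 log2 units (SE), or 2.08-fold, and -1.26 within assay 3, a description beside the -3.64 of Stra6. In this comparison the arrays of 22.4% of all genes lay below those of DA3 alone without overlap, so the order alone is common.

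Rdh10 was 2.84 ± 0.42 log2 units lower in co-cultured MBA-15 than in DA3 alone, groups that differ in both line and culture (SE, -2.84; limma adjusted p = 0.00665), or 7.16-fold, on 2 of 2 arrays. The call was lost without DA3 alone array 2 (limma adjusted p = 0.0582). Within the same culture it was higher in the DA3 fraction than in the stromal fraction, by 1.79 ± 0.42 (limma adjusted p = 0.0382), or 3.45-fold. This call ended in 7 of 15 alternative settings: without either array of co-cultured MBA-15 (adjusted p = 0.128 and 0.104), DA3 alone (0.0695 for both) or co-cultured DA3 (0.107 and 0.101), and in a fit blocked on the assay number (0.0764). Against the MBA-15 arrays labelled alone, co-cultured MBA-15 had a difference of -2.05 ± 0.42 that did not pass (limma adjusted p = 0.118). On the linear scale above Rdh10 stood at 25.5% and 89.6% on those arrays, beside the 44.4% and 81.9% of Epcam, and at 40.9% and 37.2% on the co-cultured DA3 arrays, beside 84.7% and 90.4%.

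Dhrs3, whose enzyme returns retinal to retinol, had its higher levels on the arrays labelled MBA-15. Its log2 level was 6.01 and 5.30 in co-cultured MBA-15 and 5.67 and 5.92 on the MBA-15 arrays labelled alone, against 3.95 and 4.75 in DA3 alone and 4.23 and 4.11 in co-cultured DA3. Every MBA-15 array lay above every DA3 array, and 3 of the 4 DA3 levels were dim. The share of all genes with this order was not counted, so the order is not read as a result. Co-cultured MBA-15 exceeded DA3 alone by 1.31 ± 0.32 log2 units (SE; limma adjusted p = 0.0461), or 2.47-fold, with 2.06 within assay 4 and 0.55 within assay 3. Within the co-culture, the DA3 fraction stood at -1.48 ± 0.32 against the stromal fraction (limma adjusted p = 0.0303). The first call was lost in 10 of 15 alternative settings, with the largest adjusted p at 0.227 without DA3 alone array 1 and 0.154 without co-cultured MBA-15 array 1. The second was lost in 7 of 15, with the largest adjusted p at 0.129 with the assay number as a block and 0.104 without co-cultured MBA-15 array 1. With the replicate number of the titles as a block, the first had an adjusted p of 0.0715. In co-cultured DA3 Dhrs3 differed from DA3 alone by -0.18 ± 0.32, and the arrays overlapped.

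Of the enzymes that make retinoic acid, Aldh1a1 was higher in assay 3 than in assay 4 in both MBA-15 groups, with 1 array each. In these groups assay 3 is also replicate 2 and assay 4 replicate 1. As the arrays labelled alone went against their label, the 2 groups are not read as a contrast of culture. Its log2 level in co-cultured MBA-15 was 4.61 in assay 4 and 6.36 in assay 3, and on the MBA-15 arrays labelled alone it was 4.76 in assay 4 and 6.21 in assay 3. In DA3 alone it was 3.83 and 4.09 and in co-cultured DA3 4.22 and 3.90, dim on all 4 arrays. The 2 MBA-15 groups had the same mean of 5.49, with SDs of 1.24 and 1.03, and a difference under 0.01 in size with an SE of 0.64 (limma adjusted p = 1, 95% interval from -1.54 to 1.54). Co-cultured MBA-15 was 1.53 ± 0.64 above DA3 alone and did not pass (limma adjusted p = 0.212). That difference was 2.27 within assay 3 and 0.78 within assay 4.

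Aldh1a3, the second enzyme of this step, was dim on all 8 arrays, between 4.05 and 4.51. It was 4.11 and 4.22 in DA3 alone, 4.35 and 4.51 in co-cultured DA3, 4.28 and 4.44 in co-cultured MBA-15 and 4.10 and 4.05 on the MBA-15 arrays labelled alone. In both pairs of groups the co-culture arrays were the higher ones without overlap, by 0.26 ± 0.13 in DA3 and by 0.29 ± 0.13 in MBA-15 (limma adjusted p = 0.558 for MBA-15). The DA3 difference was 0.13 after a further quantile normalization and 0.15 in a fit blocked on assay. In these comparisons 31.4% and 22.3% of all genes had co-culture arrays above the control arrays in the same way. Aldh1a2, the third gene for this step, was dim on all 8 arrays as well, with group means between 3.68 and 4.22.

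Crabp2, the carrier of retinoic acid to its receptors, was above the array median on 3 of the 4 MBA-15 arrays and dim on all 4 DA3 arrays. Its log2 level was 5.71 and 4.99 in co-cultured MBA-15, 5.60 and 4.20 on the MBA-15 arrays labelled alone, 3.75 and 3.76 in DA3 alone, and 3.77 and 4.06 in co-cultured DA3. The MBA-15 arrays of assay 4 were the higher ones in both groups, the reverse of Aldh1a1. Co-cultured MBA-15 was 1.59 ± 0.46 above DA3 alone and did not pass (SE; limma adjusted p = 0.073), nor did the DA3 fraction at -1.43 ± 0.46 against the stromal fraction (limma adjusted p = 0.0953). Without MBA-15 array 1 or 2 labelled alone both differences passed, at an adjusted p of 0.0176 and 0.0267. The first also passed with the dim genes left out (0.0278), with the assay number as a block (0.0384), with only the arrays compared (0.0275) and with an intensity trend (0.0226). The second also passed with the dim genes left out (0.0424) and with the trend (0.0369). Between the DA3 groups Crabp2 differed by 0.16 ± 0.46, with both levels dim.

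Rarb, a receptor gene that carries the DR5 pair printed above, was dim on all 8 arrays. It was at 3.50 and 3.52 in DA3 alone and 3.55 and 3.47 in co-cultured DA3, at 4.06 and 4.28 in co-cultured MBA-15, and at 3.81 and 3.83 on the MBA-15 arrays labelled alone. The 4 MBA-15 arrays lay above the 4 DA3 arrays, an order whose share over all genes was not counted and which is not read as a result. The difference between the DA3 groups was 0.00 ± 0.13. Co-cultured MBA-15 exceeded DA3 alone by 0.66 ± 0.13 log2 units (SE; limma adjusted p = 0.0191), or 1.58-fold on dim levels, and the DA3 fraction was at -0.66 ± 0.13 against the stromal fraction (limma adjusted p = 0.0202). The first call was lost without DA3 alone array 1 (0.13) or 2 (0.116) or co-cultured MBA-15 array 2 (0.089). The second was lost in 7 of 14 alternative settings, with the largest adjusted p at 0.115 when only the 4 arrays compared were fitted. Between the MBA-15 groups Rarb differed by 0.35 ± 0.13, which did not pass (limma adjusted p = 0.42).

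Rarg, the receptor gene with a clear level in both lines, was 7.28 and 7.04 in DA3 alone, 6.88 and 6.56 in co-cultured DA3, 7.60 and 6.97 in co-cultured MBA-15, and 7.28 and 7.45 on the MBA-15 arrays labelled alone. The whole range was from 6.56 to 7.60, and the co-cultured DA3 arrays were the lowest. Co-cultured MBA-15 overlapped both alone groups. The MBA-15 arrays labelled alone lay just above DA3 alone, with nearest values of 7.285 and 7.280. Co-cultured DA3 differed from DA3 alone by -0.44 ± 0.24, by -0.17 within assay 3 and by -0.19 after a further quantile normalization. It did not pass in the 3 comparisons where it was tested, with limma adjusted p between 0.18 and 0.943.

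Over the members, then, 3 of the 8 that were tested differed between co-cultured MBA-15 and DA3 alone, with Rdh10 lower and Dhrs3 and Rarb higher, beside 12.6% of all genes, 6.47% lower and 6.08% higher. The same 3 differed between the 2 fractions of the co-culture, with Rdh10 higher and the others lower in the DA3 fraction, beside 12.8% of all genes, 4.48% higher and 8.28% lower. These comparisons share the co-cultured MBA-15 arrays. With 3 genes called, neither share is read as a result about the members.

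**Figure D3:**
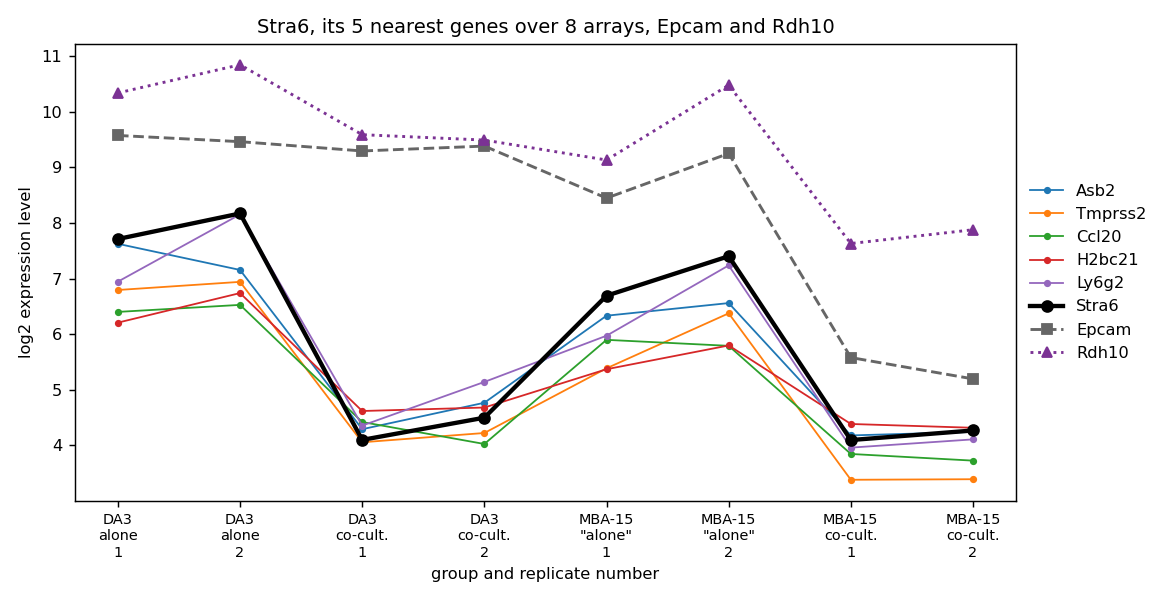
Log2 expression level of Stra6 (thick line), the 5 genes with the highest correlation with it, Epcam (dashed) and Rdh10 (dotted) on each of the 8 arrays; lines join the values of 1 gene and the arrays have no order in time. The 5 genes, picked for this likeness, are low with Stra6 in both co-culture groups, while Epcam stays above 9 in co-cultured DA3.

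The genes whose pattern was most like that of Stra6 were sought among 1651 named genes whose highest and lowest array lay at least 2 log2 units apart. The 5 with the highest Pearson correlation over the 8 arrays were Asb2 (r = 0.981), the transmembrane serine protease gene Tmprss2 (0.980), the chemokine gene Ccl20 (0.972), the histone gene H2bc21 (0.970) and Ly6g2 (0.969). The 8 points share 4 groups and the arrays labelled alone, so the correlations are descriptions. Tmprss2 was 6.79 and 6.94 in DA3 alone, 4.05 and 4.22 in co-cultured DA3, 3.38 and 3.39 in co-cultured MBA-15, and 5.38 and 6.37 on the MBA-15 arrays labelled alone. Ly6g2 was 6.94 and 8.15 in DA3 alone, 4.35 and 5.14 in co-cultured DA3, 3.96 and 4.11 in co-cultured MBA-15, and 5.97 and 7.24 on the MBA-15 arrays labelled alone. In all 5 genes the 4 arrays labelled alone lay above the 4 co-culture arrays, as in Stra6, which follows from how they were picked. Among the members Rdh10 had the highest correlation with Stra6 (r = 0.787), and Aldh1a3 the lowest (r = -0.779).

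Of the rest of the pathway, 68 of 74 other listed genes were measured, in 5 roles, and 33 of them were dim on all 8 arrays while 20 were above the array median on all 8. In co-cultured DA3 against DA3 alone, limma called 0 of the 68, beside 0.0401% of all genes, and 12 of the 68 had an unadjusted p under 0.05, beside 14.9%. Their median difference was 0.15 beside 0.04 for all genes. The largest difference upward was that of Dhrs9, an enzyme gene of retinol oxidation, at 1.64 ± 0.28 (SE; limma adjusted p = 0.134). Its levels were 3.97 and 3.77 in DA3 alone and 5.72 and 5.30 in co-cultured DA3, so both co-culture arrays were the higher ones. The largest downward were Tgm2, a transglutaminase gene known to be induced by retinoic acid, at -1.43 ± 0.43 (limma adjusted p = 0.254), and Ncoa1, a coactivator of nuclear receptors, at -1.25 ± 0.48 (0.312). Tgm2 was at 8.82 and 8.86 in DA3 alone and at 7.81 and 7.005 in co-cultured DA3.

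Receptors and coregulators were the role whose median lay lowest in co-cultured DA3, at -0.66 over 11 genes other than the members, with 9 of the 11 below 0 and 0 called. Over all genes 55.4% had a difference above 0. Of these 11 genes 9 were above the array median on all 8 arrays. The share below 0 among genes of such a level was not counted, so the 9 of 11 is not read as a fall of this role. The lower levels were mainly on co-cultured DA3 array 2, the only array of assay 5. On that array 10 of the 11 were below the mean of DA3 alone, beside 8059 of the 19938 genes. On array 1 it was 7 of the 11, beside 9672 of all genes. Against the mean of DA3 alone the median of these 11 genes was -1.04 on array 2 and -0.11 on array 1, where the medians of all genes were 0.09 and 0.01. The coactivator gene Crebbp was lower on array 2 only. It was at 8.46 and 8.62 in DA3 alone, 8.84 on co-cultured DA3 array 1 and 6.73 on array 2. In 5 of the 11 genes both co-cultured DA3 arrays lay below both DA3 alone arrays, beside 22.4% of all genes. In the role of retinol and retinal enzymes, 22 of 25 other genes had a difference above 0 with a median of 0.19, beside 55.4% of all genes above 0. Of these 25 genes 17 were dim on all 8 arrays, and 0 were called. The array medians were 4.64 and 4.58 in co-cultured DA3 and 4.50 and 4.48 in DA3 alone. The share above 0 among dim genes was not counted, so the 22 of 25 is not read as a rise of this role. The 3 Cyp26 genes of retinoic acid breakdown were dim on all 8 arrays, with Cyp26b1 at group means between 3.79 and 4.22.

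**Figure D4:**
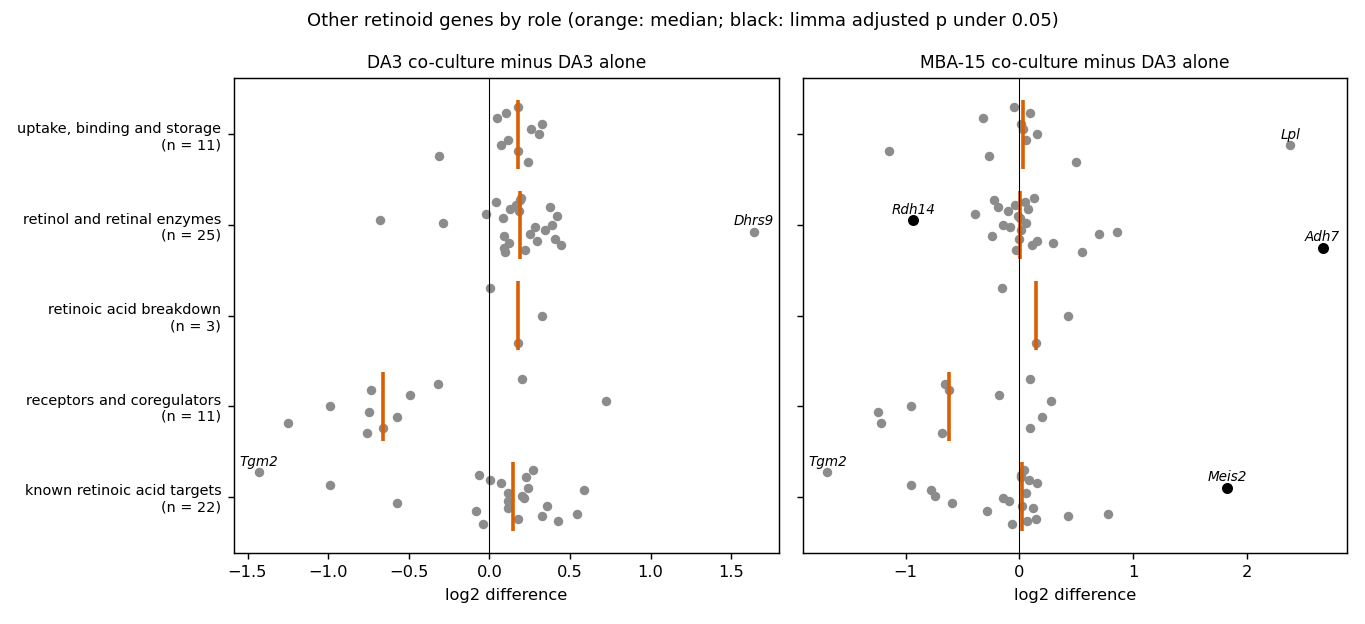
Log2 difference of the 68 measured pathway genes other than the members, by role, in co-cultured DA3 against DA3 alone (left) and co-cultured MBA-15 against DA3 alone (right); orange bars are medians and black points have a limma adjusted p under 0.05. A gene listed under 2 roles appears in both. The left panel has 0 black points, and the right panel has Adh7, Meis2 and Rdh14.

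In the comparison that differs in both line and culture, 3 of these 68 genes passed in co-cultured MBA-15 against DA3 alone, beside 12.6% of all genes. The alcohol dehydrogenase gene Adh7, which can oxidise retinol, was higher in co-cultured MBA-15 by 2.66 ± 0.36 (SE; limma adjusted p = 0.00482), at 8.27 and 9.42 against 6.33 and 6.03. Meis2, a homeobox gene induced by retinoic acid, was higher by 1.82 ± 0.25 (limma adjusted p = 0.00549), at 5.86 and 5.19 against dim levels of 3.76 and 3.65. Rdh14, a retinol dehydrogenase gene, was lower by 0.93 (-0.93 ± 0.20, limma adjusted p = 0.0266), and both its co-cultured MBA-15 levels, 4.52 and 4.40, were dim. Between the 2 fractions of the co-culture 3 of the 68 passed, beside 12.8% of all genes. Adh7 and Meis2 were lower in the DA3 fraction, at -2.58 ± 0.36 and -1.58 ± 0.25 (limma adjusted p = 0.00624 and 0.0105), and the homeobox gene Meis1 was higher, at 1.37 ± 0.22 (0.0103), with 7.60 and 7.37 against 6.02 and 6.21. In co-cultured MBA-15 against the MBA-15 arrays labelled alone 0 of the 68 passed in limma, and 2 had an unadjusted p under 0.05, beside 9.8% of all genes. The largest absolute differences there were those of Tgm2 (-1.29 ± 0.43), Fabp5 (-0.71 ± 0.40) and Hoxa5 (-0.62 ± 0.27).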

How the data were processed

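RNA of 8 samples was measured on Affymetrix mouse arrays. The authors deposited log2 values, 1 per probe set and array; RMA and Partek 6.5 are named per the submitters' processing notes, and their settings are not given in the sources used here. The scale was read from the range of the values. RMA is meant to put the arrays on a common distribution, so each change is relative to the bulk of genes. The deposited values were not fully level, with array medians from 4.479 to 4.642, and a further quantile normalization moved some small differences. The number of arrays limits the precision.

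Of 35556 probe sets, 21789 carried a single symbol in the platform table, 1621 carried several and 12146 were unnamed. The Entrez identifiers of 21698 were found in a RefSeq table, and 0 symbols changed. The probe set with the highest mean stood for its gene, which left 19938 genes with no filter. Groups and replicate numbers came from the sample titles. A model with 4 group means was fitted over the 8 arrays (limma 3.58.1, R 4.3.3, 4 residual and 2.6 prior degrees of freedom), and two-sided p-values were adjusted over 19938 genes by the Benjamini-Hochberg method, with a threshold of 0.05. The members and lists were chosen with earlier results of these data known. Named genes are the members, Epcam, pathway genes past the threshold or, where fewer than 3 passed, also the 3 with the largest absolute differences, and the 5 genes most correlated with Stra6 among those with a range of at least 2 log2 units, predicted and clone-named loci passed over. Stra6l, Aldh1a2, Crebbp and Cyp26b1 were added after their values were seen. On simulated data for co-cultured DA3 against DA3 alone, over 19938 genes, the fit called 22, 43, 46 and 47 of 50 planted changes of 1, 2, 3 and 4 log2 units, with 8 false calls. The simulated noise came from the fitted model, independent between arrays and with the same spread in every group. In the data the SD of the replicate difference was 0.251 in DA3 alone and 0.482 in co-cultured DA3. The counts therefore check the code and do not give the power in these data. The alternatives were a block on the replicate or assay number, only the arrays compared, a further quantile normalization, a filter on dim genes, the mean of probe sets, an intensity trend with a robust prior, and each array left out.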

Additional observations from a re-analysis of the deposited data

How the results depend on the processing

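With 2 arrays per group, counts of called genes moved more than differences did. Stra6 in co-cultured DA3 against DA3 alone was -3.87 to -3.41 with 1 array left out and -4.07 with the assay block. In that comparison 8 genes were called, against 3 with the replicate block, 0 with the assay block, 0 with only the arrays compared, 60 with the dim filter, 134 with the intensity trend and 0 to 3 with 1 array left out; the other pathway genes went from 0 to 1 with the trend. In MBA-15, 169 genes became 28 with only the arrays compared, 334 with the trend and 13 to 198 with 1 array left out, the fewest without co-cultured MBA-15 array 2. In co-cultured MBA-15 against DA3 alone the count was 2503, with 995 to 2870 when 1 array was left out, the fewest without DA3 alone array 1. The 3 pathway genes there became 6 with the assay block, 10 with only the arrays compared, 5 with the dim filter, 8 with the trend and 1 to 8 with 1 array left out. Between the fractions 2545 genes became 1123 with only the arrays compared and 1642 to 2229 with 1 array left out, and the 3 pathway genes became 6 with the assay block, 1 with only the arrays compared, 10 with the trend and 3 to 6 with 1 array left out. Replicate 1 is assay 4 and replicate 2 assay 3 in every group but co-cultured DA3, where they are assays 3 and 5, and the labels do not say what an assay is. The correlation of same-numbered deviations was 0.0322, 0.0102, 0.213 and 0.311 in the 4 comparisons. Small differences turned sign. Aldh1a1 in MBA-15 was 0.062 after further quantile normalization and -0.88 to 0.87 with 1 array left out, Crabp2 -0.26 to 1.15, Rarg -0.40 to 0.23 and Dhrs3 -0.50 to 0.22. In co-cultured MBA-15 against DA3 alone Rbp4 was -0.066 after quantile normalization and -0.056 to 0.12 with 1 array left out, and Rarg -0.19 to 0.44. Between the fractions Aldh1a3 was -0.048 with the assay block and -0.012 to 0.15 with 1 array left out, and Stra6 -0.31 with the assay block and -0.083 without co-cultured DA3 array 2. Between the DA3 groups Aldh1a1 was -0.31 with the assay block, -0.058 after quantile normalization and -0.054 to 0.26 with 1 array left out, Rarb was -0.040 to 0.039, and Dhrs3 was 0.22 without DA3 alone array 2. The cause was not tested. Rdh10 in MBA-15 passed in 3 of 15 alternatives, with the dim filter (limma adjusted p = 0.037), the trend (0.02) and without MBA-15 array 1 labelled alone (0.0179).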
